A study of Mus musculus with 6 samples.

Results

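Ribosome biogenesis factors and subunits of RNA polymerase I were followed in mouse embryonic stem (ES) cells transfected with a short hairpin RNA (shRNA) vector against Chd4, the ATPase of the chromatin remodelling complex NuRD. The genes are a list of 55 symbols, matched to the array by gene symbol and each represented by its brightest probe; the array names 19057 genes in all. Probes naming 52 of the 55 were present, and 41 of these were detected and tested; Fbl, Npm3 and Ddx18 had no probe named for them here. Gene expression was measured on 6 Illumina mouse BeadChip arrays, 3 with RNA of shChd4-transfected cells and 3 with RNA of control-transfected cells. The labels describe the second group only as control and do not give its plasmid or the hairpin sequence.

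Cells of both groups grew on a layer of mouse fibroblasts arrested with mitomycin C, with LIF and 15% serum. Vectors entered by electroporation, puromycin was added 24 h later, and RNA was collected after a further 48 h. The labels mention no step that removed the fibroblast feeders. Each group was hybridised on a BeadChip of its own, per the titles, and an effect of the chip cannot be told apart from one of the shRNA. Replicate numbers below follow the order of the samples, because the labels give none, and do not pair arrays across groups. The labels do not say whether arrays of a group stem from separate cultures. The p-values therefore reflect the variation among these arrays alone, and that variation may be technical.

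Ribosomes are built in the nucleolus. There RNA polymerase I transcribes the ribosomal DNA into a long precursor, small nucleolar ribonucleoproteins (snoRNPs) guide its chemical modification, and large sets of assembly factors fold and cut it into the precursors of the small (40S) and the large (60S) subunit. Rapidly dividing cells such as ES cells are known for prominent nucleoli and high rates of ribosome production, and the transcription factor Myc is known to activate many of these genes.

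Levels below are log2 intensities after background correction and quantile normalisation, and a log2 change is shChd4 minus control with its standard error (SE, n = 3 per group). A gene was called at a limma adjusted p under 0.05, adjusted by Benjamini-Hochberg over all 9808 genes tested. The label check came first. Chd4 itself read 8.06, 7.91 and 8.33 on the shChd4 arrays, against 10.13, 10.13 and 10.17 on the control arrays, which left 24.3% of the control intensity.

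The promoters of 3 of the genes are shown as examples that differ in response: Nop2 fell most, Gnl3 was next among the 60S assembly genes, and Nol11 was close to its control level. No gene with a positive change is among them. The windows run from 250 bases before to 50 bases after the annotated start, 5′ to 3′ on the gene's own strand, from RefSeq on GRCm38.p6. Nop2 lies at chr6:125131633-125131932 (plus strand), Gnl3 at chr14:31019082-31019381 (minus strand) and Nol11 at chr11:107189332-107189631 (minus strand). Capitals mark CACGTG, the E-box bound by Myc and related factors, and GGGCGG or its reverse complement CCGCCC, the GC box.
Nop2: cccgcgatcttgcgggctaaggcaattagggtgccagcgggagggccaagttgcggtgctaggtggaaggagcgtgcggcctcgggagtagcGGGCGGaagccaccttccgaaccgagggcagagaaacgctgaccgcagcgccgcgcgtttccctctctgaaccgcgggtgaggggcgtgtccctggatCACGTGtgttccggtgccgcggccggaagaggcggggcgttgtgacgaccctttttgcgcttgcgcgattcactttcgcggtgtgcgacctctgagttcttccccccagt
Gnl3: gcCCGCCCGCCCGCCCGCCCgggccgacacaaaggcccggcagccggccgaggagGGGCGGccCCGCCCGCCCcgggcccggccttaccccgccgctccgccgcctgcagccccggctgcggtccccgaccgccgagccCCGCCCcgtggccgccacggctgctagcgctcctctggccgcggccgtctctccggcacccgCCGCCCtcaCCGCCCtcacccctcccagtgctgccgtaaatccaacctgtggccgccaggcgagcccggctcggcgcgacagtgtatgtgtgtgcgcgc
Nol11: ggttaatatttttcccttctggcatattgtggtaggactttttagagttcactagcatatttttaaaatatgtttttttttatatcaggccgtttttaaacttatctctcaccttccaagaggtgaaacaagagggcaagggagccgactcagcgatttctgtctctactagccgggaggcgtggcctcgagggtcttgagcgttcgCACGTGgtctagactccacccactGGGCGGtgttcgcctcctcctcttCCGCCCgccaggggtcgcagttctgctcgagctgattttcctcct
The Nop2 window holds 1 CACGTG, whose first base lies 60 bases before the start, and 1 GC box. The Gnl3 window holds no CACGTG and 10 GC boxes, counting overlapping copies. The Nol11 window holds 1 CACGTG, 43 bases before the start, and 2 GC boxes.

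Across the table of promoters, 45 of the 55 genes were matched. A CACGTG stood in 8 of them (17.8%), against 11.9% of the 7960 tested genes with a promoter and 8.09% of all 27025 genes in the table. Among the 17 matched genes that fell, 2 held it (11.8%), namely Nop2 and Wdr43. Among the 17 matched genes that were tested and did not pass, 4 held it (23.5%), namely Imp4, Pes1, Nol11 and Rrn3, the last with 2 copies. Utp18 and Utp20, which were not detected, held it too. The GC box, searched on both strands, stood in 77.8% of the 45 and in 69.1% of the tested genes. TTCCGG, the core of the ETS factor motif, searched on both strands, stood in 46.7% and 31.1%, and CCAAT, also on both strands, in 37.8% and 43.4%. These shares describe the letters in the windows and were not tested.

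Transcripts of ribosome biogenesis genes were lower in shChd4 cells. Of the 41 tested, 19 fell and 0 rose, and 22 did not pass. At an unadjusted p under 0.05, 25 of the 41 were lower and 0 higher. Of all 9808 genes tested, 4633 passed that unadjusted threshold, 2326 of them lower. At the adjusted p, 18.2% of all genes tested fell and 19.9% rose. The share of the ribosome biogenesis genes that fell, 46.3%, stood above that background. Their median log2 change was -0.49, which is 71.4% of the control intensity, against a median of -0.05 over all genes tested. The sign was negative for 39 of the 41, the exceptions being Gar1 and Nol9. The genes and lists were chosen with results of these data known, so no test over the list is given.

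The size of the falls was moderate. Among the 19 genes that fell, the log2 change ranged from -0.54 (Nop10) to -1.51 (Nop2), or 68.7% to 35.2% of the control intensity, and 4 of them fell at least 2-fold. A fall of that size was called for 3.82% of all genes. For 17 of the 19 every shChd4 array lay below every control array, and 24 of the 41 showed that separation, against 25.3% of all genes tested. The opposite separation, shChd4 above control, was seen for 1 of the 41 (Nol9), against 25% of all genes tested. Ranked by log2 change among all genes tested, 13 of the 41 lay in the lowest 10 percent and 0 in the highest 10 percent.

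Cell type markers moved on the same arrays. Of 19 tested fibroblast markers 17 rose and 0 fell, with a median log2 change of 2.61; 4 of the 19 were detected in shChd4 cells alone and so entered the test through that group. The summed level of the 24 fibroblast markers measured was 15015 to 20312 on the shChd4 arrays and 2565 to 3812 on the control arrays, as linear normalised intensity. On every shChd4 array Col5a2, Postn and Fap were below detection. On every control array 9 of the 24 were, among them Col1a1, Col3a1 and Lum. Of 15 ES cell markers, all detected, 8 fell and 0 rose, with a median of -0.57, and their summed level was 48024 to 55324 on the shChd4 arrays and 63304 to 66565 on the control arrays. Of 10 primitive endoderm markers 6 were tested, of which 5 rose and 1 fell. Sox17, Foxa2 and Lamb1 were below detection on every array, and Gata4 on every control array. Of 8 trophectoderm markers 4 were tested, of which 1 rose and 1 fell. Eomes, Elf5, Gata3 and Hand1 were below detection on every array.

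Summed over each list on the linear scale, where bright genes weigh most, the ES cell markers stood at 78.4% of control, the 41 ribosome biogenesis genes at 81.1% and the 53 ribosomal protein genes at 99.2%. In bulk RNA of this kind, fewer cells of a type and less RNA per cell cannot be told apart, and the part of the fibroblast and ES cell shifts in the falls described here was not tested.

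**Figure D1:**
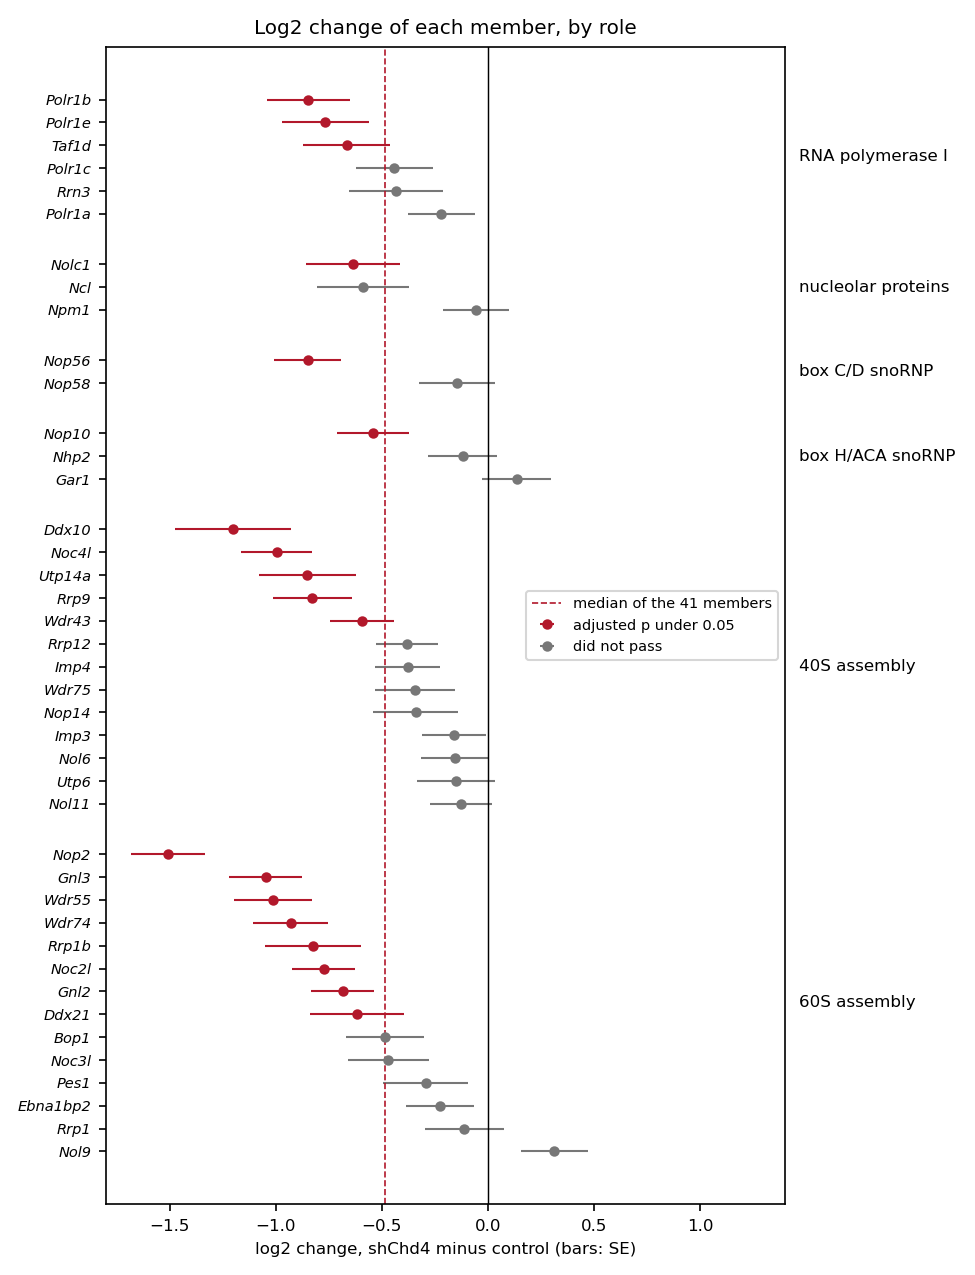
Log2 change (shChd4 minus control) of the 41 genes tested, grouped by role, with bars for the SE; red points passed at a limma adjusted p under 0.05 and the dashed line is the median of -0.49. Red points occur in every role group, and Gar1 and Nol9 are the points to the right of 0.

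Of the RNA polymerase I genes, 3 of 6 fell (50%) and 0 rose, against 18.2% of all genes tested that fell. Polr1b, the second-largest subunit of the enzyme, read 7.79, 8.03 and 8.12 on the shChd4 arrays, against 9.20, 8.77 and 8.505 on the control arrays. Its log2 change was -0.85 ± 0.20 (SE; limma adjusted p = 0.00609). Polr1e, a subunit involved in initiation and elongation, read 9.59, 9.68 and 8.95 in shChd4 cells and 10.10, 10.33 and 10.08 in control cells, a change of -0.77 ± 0.20 (SE; limma adjusted p = 0.0124). The groups did not overlap for either gene. Without control replicate 2 the Polr1e change was -0.69 and did not pass (limma adjusted p = 0.0505).

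Taf1d belongs to the selectivity factor that brings the polymerase to the ribosomal DNA promoter. It read 8.77, 7.94 and 8.40 in shChd4 cells, against 9.12, 8.96 and 9.02 in control cells, and changed by -0.66 ± 0.20 (SE; limma adjusted p = 0.0247). A second detected Taf1d probe changed by -0.31. The Taf1d call was lost when any array but shChd4 replicate 1 was left out, at changes of -0.70 to -0.45 (limma adjusted p 0.0514 to 0.0758). Polr1c, a subunit shared with RNA polymerase III, read 9.61, 9.83 and 9.29 in shChd4 cells and 10.22, 9.94 and 9.89 in control cells. All its shChd4 arrays lay below the control arrays, but the change of -0.44 did not pass (limma adjusted p = 0.0755). With an array left out it ranged from -0.57 to -0.30, and passed only without shChd4 replicate 2 (-0.57, limma adjusted p = 0.0401). The initiation factor gene Rrn3 (-0.43) and the largest subunit gene Polr1a (-0.22) did not pass either. Further detected Polr1a probes changed by -0.71, -0.24 and 0.12, so the probes of that gene disagreed.

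Among the abundant nucleolar proteins the readings were mixed, with 1 fall in 3 (33.3%, against 18.2% of all genes tested). With so few genes that share cannot be set apart from the background. Nolc1, a nucleolar phosphoprotein that binds snoRNPs, read 5.09, 5.03 and 5.48 in shChd4 cells, against 5.95, 6.20 and 5.36 in control cells. The change was -0.64 ± 0.22 (SE; limma adjusted p = 0.0426), but shChd4 replicate 3 lay above control replicate 3. The Nolc1 levels lay close to the floor, where genes of the list below detection read 4.28 to 4.75. Without background correction the Nolc1 change was -0.20 and did not pass (limma adjusted p = 0.125). The Nolc1 call was also lost without control replicate 1 (-0.58) or 2 (-0.46) and without shChd4 replicate 1 (-0.58) or 2 (-0.55).

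Nucleolin (Ncl), which binds ribosomal DNA chromatin and the precursor RNA, read 10.29, 9.99 and 9.41 in shChd4 cells, against 10.43, 10.64 and 10.39 in control cells. The groups did not overlap, and the change of -0.59 ± 0.22 (SE) missed the threshold narrowly (limma adjusted p = 0.0502); a second detected probe changed by -0.73. With an array left out the Ncl change ranged from -0.78 to -0.35. It passed only without shChd4 replicate 1 (-0.78, limma adjusted p = 0.0215). Nucleophosmin (Npm1), a histone and assembly chaperone, read 14.05, 13.96 and 13.80 in shChd4 cells and 14.09, 14.06 and 13.83 in control cells. Its groups overlapped almost entirely, with a change of -0.06 ± 0.16 (SE; limma adjusted p = 0.807).

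Core proteins of the box C/D snoRNP, which carries out 2′-O-methylation of the precursor RNA, were measured through the paralogues Nop56 and Nop58. Nop56 read 10.35, 10.04 and 10.01 on the shChd4 arrays, against 11.01, 11.05 and 10.89 on the control arrays. All shChd4 arrays were clearly lower, and the change was -0.85 ± 0.16 (SE; limma adjusted p = 0.0018). Nop58 read 10.95, 11.04 and 11.35 in shChd4 cells, against 11.39, 11.39 and 10.997 in control cells. Its groups overlapped and its change was -0.15 ± 0.18 (SE; limma adjusted p = 0.556). Whether the paralogues differ from each other was not tested.

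The box H/ACA snoRNP converts uridine to pseudouridine, and Nop10 was the 1 gene of 3 tested that fell (33.3%, against 18.2% of all genes tested). It read 11.30, 11.34 and 10.97 in shChd4 cells, against 11.91, 11.75 and 11.58 in control cells, a change of -0.54 ± 0.17 (SE; limma adjusted p = 0.0258), while a second detected probe changed by -0.12. The Nop10 call was lost without control replicate 1 (-0.46) or 2 (-0.54) and without shChd4 replicate 3 (-0.42). Nhp2 read 12.22, 12.03 and 11.97 in shChd4 cells and 12.41, 12.02 and 12.16 in control cells. The groups overlapped and the change of -0.12 did not pass, although a second detected Nhp2 probe changed by -0.68. Gar1 read 12.44, 12.63 and 12.28 in shChd4 cells, against 12.16, 12.30 and 12.47 in control cells, a change of 0.13 ± 0.16 (SE) that did not pass and turned negative with median scaling (-0.10). Both probes of Dkc1, the pseudouridine synthase, were below detection on all 6 arrays.

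Factors that assemble the small subunit showed 5 falls (38.5%) and 0 rises among 13 tested, against 18.2% of all genes tested that fell. Their median log2 change was -0.38. Noc4l, a partner of Nop14 in nuclear export of the small subunit precursor in yeast, read 9.24, 9.70 and 9.52 in shChd4 cells, against 10.57, 10.53 and 10.34 in control cells. The change was -0.996 ± 0.17 (SE; limma adjusted p = 0.000971), and a second probe changed by -0.44. Rrp9, a protein specific to the U3 snoRNP, read 9.29, 9.66 and 9.04 in shChd4 cells and 10.09, 10.32 and 10.06 in control cells, a change of -0.83 ± 0.19 (SE; limma adjusted p = 0.005). Neither gene's groups overlapped.

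The RNA helicase gene Ddx10 had the largest fall of this set. It read 7.84, 7.61 and 6.68 on the shChd4 arrays, against 8.78, 8.68 and 8.27 on the control arrays. The change was -1.20 ± 0.27 (SE; limma adjusted p = 0.00554), with the largest SE of the 41 genes, and shChd4 replicate 3 lay below the others of its group. A second detected Ddx10 probe changed by -1.41. Wdr43, a subunit of the complex that first binds the precursor RNA, read 10.36, 10.34 and 10.39 in shChd4 cells and 10.90, 11.14 and 10.84 in control cells. Its shChd4 arrays were nearly identical, and it changed by -0.59 ± 0.15 (SE; limma adjusted p = 0.0103). Without control replicate 2 the Wdr43 change was -0.50 (limma adjusted p = 0.0552).

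Utp14a, a processome subunit, fell by 0.85 on the log2 scale (limma adjusted p = 0.013). It did not pass without control replicate 1 (-0.67) or without shChd4 replicate 3 (-0.66). The other 8 tested genes of this set did not pass. Rrp12 (-0.38), Imp4 (-0.38), Wdr75 (-0.35) and Nop14 (-0.34) were the lowest of them, and Imp3, Nol6, Utp6 and Nol11 changed by between -0.16 and -0.13. Second detected probes of Imp4 and Wdr75 changed by -0.63 and -0.62. Utp3, Utp15, Utp18, Utp20, Wdr36, Mphosph10 and Bysl were below detection on every array.

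The large subunit set, the largest by tested genes, held the most falls, 8 of 14 (57.1%) with 0 rises, against 18.2% of all genes tested that fell. Its median log2 change was -0.65. Nop2, the methyltransferase that modifies a cytosine of the large ribosomal RNA, read 7.92, 8.14 and 7.70 on the shChd4 arrays, against 9.20, 9.50 and 9.59 on the control arrays. The change was -1.51 ± 0.18 (SE; limma adjusted p = 8.17e-05), which places Nop2 at percentile 0.816 of all genes tested by log2 change. Both further Nop2 probes were detected on all arrays and changed by -1.12 and -1.53, so every Nop2 probe was lower.

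Gnl3, or nucleostemin, a nucleolar GTPase known for high levels in stem cells, read 8.79, 8.47 and 8.29 in shChd4 cells and 9.70, 9.51 and 9.47 in control cells. It changed by -1.05 ± 0.17 (SE; limma adjusted p = 0.000813). Its relative Gnl2, a GTPase that leaves the nucleolus with the large subunit precursor in yeast, fell by 0.68 on the log2 scale (limma adjusted p = 0.00431); a second detected Gnl2 probe changed by -0.28. Neither gene's groups overlapped.

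Wdr74, an assembly factor of the large subunit, read 9.92, 9.78 and 9.42 in shChd4 cells, against 10.80, 10.62 and 10.50 in control cells. Its change was -0.93 ± 0.18 (SE; limma adjusted p = 0.00194). Wdr55, a nucleolar WD-repeat protein, read 6.95, 6.64 and 6.40 in shChd4 cells and 7.46, 7.85 and 7.73 in control cells, a change of -1.01 ± 0.18 (SE; limma adjusted p = 0.00157). Both genes were lower on every shChd4 array than on any control array.

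Noc2l, the relative of a yeast factor that moves the large subunit precursor out of the nucleolus, fell by 0.77 on the log2 scale (limma adjusted p = 0.00217), and Rrp1b, a nucleolar protein that also binds chromatin, by 0.82 (limma adjusted p = 0.0147). Further Rrp1b probes, all detected, changed by -0.79, -0.96 and -1.05. The Rrp1b call was lost without control replicate 1 (-0.71) or shChd4 replicate 3 (-0.59). The paralogue Rrp1, close to the floor at 5.09 to 5.71, changed by -0.11 and did not pass. The helicase gene Ddx21, which links RNA polymerase I transcription to processing, fell by 0.62 (limma adjusted p = 0.0471), though its groups overlapped; its second probe changed by -0.91. The Ddx21 call was lost when any array but shChd4 replicate 1 was left out, at changes of -0.70 to -0.46 (limma adjusted p 0.0638 to 0.161).

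The PeBoW complex, made of Pes1, Bop1 and Wdr12, is needed to mature the large subunit RNA. Bop1 changed by -0.49 (limma adjusted p = 0.0562) and Pes1 by -0.29 (limma adjusted p = 0.278), neither of which passed, and Wdr12 was below detection. A second detected Bop1 probe, close to the floor at 5.13 to 5.55, changed by -0.16. Noc3l changed by -0.47, Ebna1bp2 by -0.23 on its tested probe and 0.25 on another, and Nol9, a polynucleotide kinase, by 0.31. None of these passed. For Nol9 every shChd4 array (5.30 to 5.60) lay above every control array (5.05 to 5.28), all close to the floor. With an array left out, the Bop1 change ranged from -0.63 to -0.35 and passed only without shChd4 replicate 2 (-0.63, limma adjusted p = 0.0218). That of Noc3l ranged from -0.66 to -0.31 and passed only without shChd4 replicate 1 (-0.66, limma adjusted p = 0.0221). Rrs1 and Nop16 were below detection on every array.

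**Figure D2:**
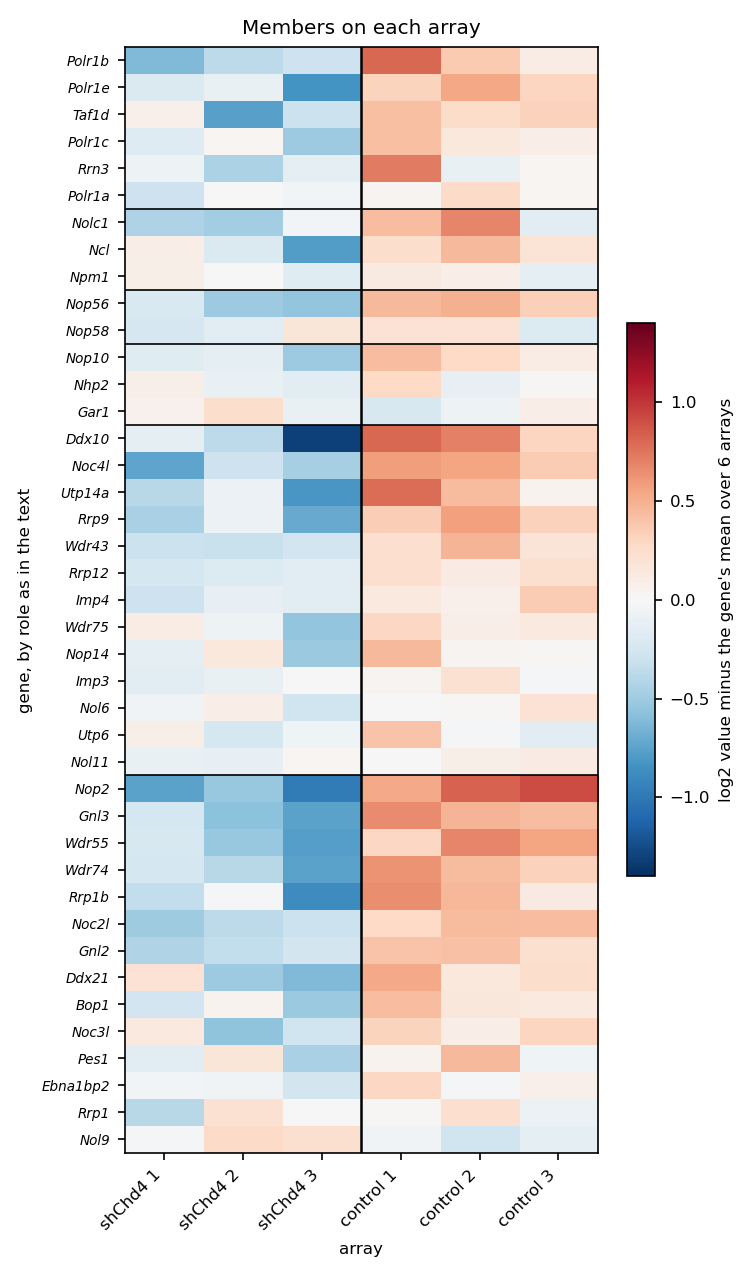
Log2 value of each of the 41 genes on each array minus the gene's mean over the 6 arrays, with genes down the page by role and shChd4 arrays left of control arrays; blue is below and red above the gene's mean. The Nop2, Gnl3, Noc4l and Nop56 rows are blue on all 3 shChd4 arrays and red on all 3 control arrays, whereas the Npm1 and Nol11 rows are pale throughout.

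The 11 genes below detection on all 6 arrays had log2 levels from 4.28 to 4.75, at the floor of the scale, so these probes give no information on a change. All 41 tested genes were detected on all 6 arrays, so none of them entered the test through 1 group alone. Another detected probe existed for 16 of the tested genes, 21 probes in all, of which 18 were lower in shChd4 cells and 19 had the sign of the tested probe.

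Ribosome assembly genes outside the 55 were lower too. Of 64 further tested genes for 40S assembly, 60S assembly and RNA polymerase I, 25 fell (39.1%), 1 rose and 38 did not pass. Of all genes tested, 18.2% fell and 19.9% rose. The median log2 change of the 64 was -0.35. Nle1, Senp3 and Nvl, which act in 60S maturation, fell with log2 changes of -1.04, -0.93 and -0.76 (limma adjusted p at most 0.00213). The 40S assembly genes Utp4, Wdr3 and Emg1 fell with log2 changes of -1.01, -0.74 and -0.95 (limma adjusted p at most 0.00281). Without control replicate 1, and likewise without shChd4 replicate 3, 16 of the 64 fell, against 13.9% and 14.5% of all genes tested.

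Ubtf, the architectural factor of ribosomal DNA chromatin, read 8.98, 9.24 and 9.14 in shChd4 cells, against 9.79, 9.51 and 9.73 in control cells, and changed by -0.55 ± 0.16 (SE; limma adjusted p = 0.0169). The Ubtf call was lost without control replicate 1 (-0.50) or 3 (-0.53) and without shChd4 replicate 1 (-0.48). The gene that rose was Taf1a, a partner of Taf1d in the selectivity factor. It read 8.54, 8.35 and 8.42 in shChd4 cells and 7.89, 7.996 and 7.94 in control cells, a change of 0.49 ± 0.15 (SE; limma adjusted p = 0.0207). That call was lost without control replicate 1 (0.47) or 2 (0.52) and without shChd4 replicate 1 (0.44). Taf1c, another subunit of that factor, changed by -0.13 and did not pass.

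RNA exosome genes, whose products trim the precursor RNA, had 5 falls and 0 rises among 11, with a median of -0.42. At an unadjusted p under 0.05, 7 were lower and 0 higher. Over all genes tested 18.2% fell, and 2326 of 9808 were lower at an unadjusted p under 0.05. Exosc5, Exosc8 and Exosc10 fell with log2 changes of -1.08, -0.82 and -0.69 (limma adjusted p at most 0.00544). RNA polymerase III makes the 5S ribosomal RNA and the transfer RNAs. Of its 17 tested genes 8 fell and 0 rose, with a median of -0.18, and at an unadjusted p under 0.05, 8 were lower and 1 higher. Gtf3c2, Polr3g and Polr3k fell with log2 changes of -1.03, -1.23 and -0.72 (limma adjusted p at most 0.00912). Left-out arrays changed this count: 4 genes fell without control replicate 2, without shChd4 replicate 2 or without shChd4 replicate 3, and 5 without control replicate 1 or without shChd4 replicate 1. Of all genes tested, 13.1% fell without control replicate 2, 17.7% without shChd4 replicate 2 and 14.5% without shChd4 replicate 3. The share was 13.9% without control replicate 1 and 14.4% without shChd4 replicate 1.

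Ribosomal protein genes, the building blocks of the finished particle, stayed without calls. Of 53 tested, 0 were called in either direction by limma. At an unadjusted p under 0.05, 0 of the 53 passed, against 4633 of all 9808 genes tested. The median log2 change of the 53 was -0.03 and the values ran from -0.33 to 0.31. With a trended, robust variance prior 2 were called lower and 3 higher. Of the 53, 24 averaged above a log2 level of 14, where the highest value of any tested gene was 15.04. Among the other 21 genes above that level, 2 were called, so the top of the scale held few calls of any kind. Whether the signal saturates there was not tested.

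**Figure D3:**
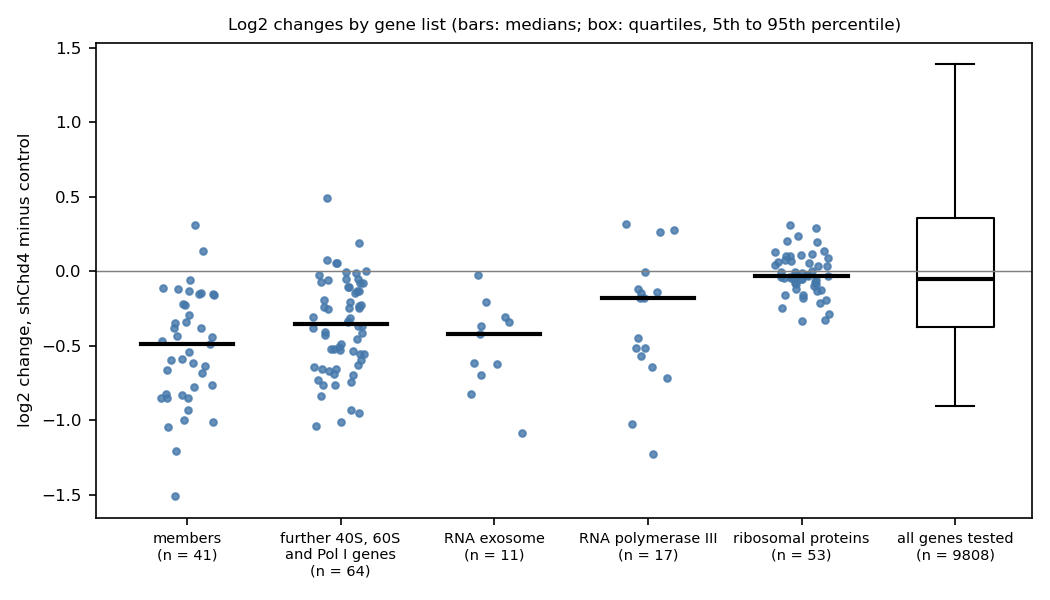
Log2 change (shChd4 minus control) of every tested gene of 5 lists as points, with black bars for the medians, beside a box for all 9808 genes tested. The medians are -0.49 for the ribosome biogenesis genes, -0.35 for further assembly and RNA polymerase I genes, -0.42 for the RNA exosome, -0.18 for RNA polymerase III and -0.03 for ribosomal proteins.

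Of the Myc family, Myc read 5.22, 5.04 and 4.73 in shChd4 cells and 5.47, 5.07 and 4.87 in control cells, close to the floor, and changed by -0.14 (limma adjusted p = 0.615). Mycl read 6.56, 6.80 and 7.14 in shChd4 cells, against 7.67, 7.64 and 7.83 in control cells, and fell by 0.88 on the log2 scale (limma adjusted p = 0.00293). Mycn was below detection on all arrays, at 4.29, 4.33 and 4.38 in shChd4 cells and 4.50, 4.41 and 4.32 in control cells.

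The mean log2 level of the 41 genes was 9.31, 9.31 and 9.11 on shChd4 replicates 1, 2 and 3, against 9.84, 9.78 and 9.67 on control replicates 1, 2 and 3. Of the shChd4 arrays, replicate 3 was the lowest for 23 of the 41 genes and the highest for 9, and it was the highest for 33.1% of all genes tested. Of the control arrays, replicate 3 was the lowest for 25 of the 41 and the highest for 5, and it was the highest for 38.4% of all genes tested. The fibroblast marker mean was 8.80, 8.53 and 8.85 on the shChd4 arrays and 5.91, 6.32 and 6.40 on the control arrays. Within the groups it was highest on shChd4 replicate 3 and on control replicate 3. The ES cell marker mean was 9.62, 10.10 and 9.64 in shChd4 cells and 10.57, 10.55 and 10.46 in control cells. Without shChd4 replicate 3, 14 of the 41 genes fell (34.1%, against 14.5% of all genes tested), and the median log2 change of the 41 was -0.42. Without control replicate 1, and likewise without control replicate 2, 13 fell (31.7%), against 13.9% and 13.1% of all genes tested.

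**Figure D4:**
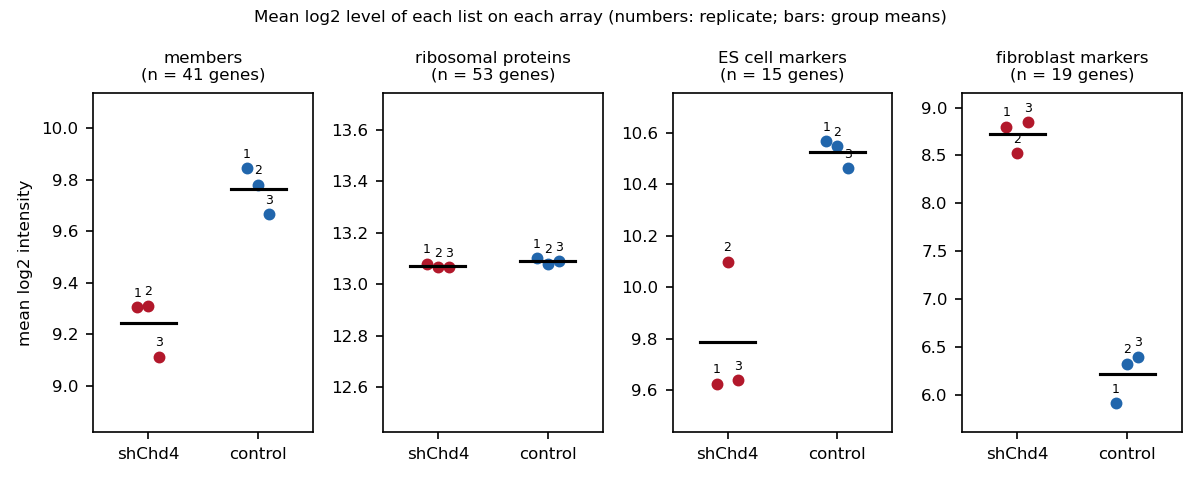
Mean log2 intensity of 4 gene lists on each array (points, numbered by replicate; bars are group means), shChd4 left of control, each panel with its own axis. The ribosome biogenesis genes sit at 9.11 to 9.31 in shChd4 cells and 9.67 to 9.84 in control cells, and the ribosomal protein means of the groups nearly coincide.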

How the data were processed

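The deposited scanner table gives a linear intensity for 45281 probes per array, with neither background subtraction nor scaling. A detection p-value accompanies every intensity, per the file headers. The submitters' processing notes name GenomeStudio; version and genome build are not given in the sources used here. The authors' series matrix intensity values, quantile-normalised to judge by their matching quantiles, were tried as another input. The background was removed with normexp from the detection p-values (offset 16), arrays were quantile-normalised, and groups were compared with limma 3.58.1 in R 4.3.3. GEO's platform annotation names 34885 probes with 1 gene symbol, 18 with several and 10378 with none. Of the 34885, 34807 were matched by Entrez identifier to a RefSeq gene table (GRCm38.p6) and took its symbol, whether or not it differed. A gene was tested if its brightest probe had a detection p under 0.05 in at least 3 arrays. The number of arrays, 3 per group, limits the precision; arrays give no read depth.

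Members and lists were chosen with earlier results of these data known. Values on every array are given for the 4 tested genes of each role group with the smallest p, and for Ubtf, Taf1a and the Myc family; of each other further list, up to 3 genes with the smallest p are named by their change, and all 55 could be named. On simulated arrays of 8083 genes built for the shChd4 against control comparison, 200 genes were changed. The test recovered 35 of 40 genes lowered by 1 log2 unit and 14 of 40 lowered by 0.5. Of its 147 calls, 5 were false. On the measured arrays 3735 of 9808 genes were called, and recovery with that many changed genes was not tested.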

Additional observations from a re-analysis of the deposited data

How the results depend on the processing

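The genes were compared under 16 other settings. Between 13 and 25 of the ribosome biogenesis genes fell and 0 rose in each. Leaving out an array gave 13 to 20 falls (31.7% to 48.8%) and a median of -0.58 to -0.42. The share of all genes that fell then ranged from 13.1% to 17.7%, against 18.2% with all arrays. With no detection filter 28.8% of the listed genes and 8.54% of all genes fell. Among genes detected on all 6 arrays the shares were 53.7% and 21.6%. The median moved most with no detection filter (-0.36), which adds 11 undetected genes. Of the 19 falls, 10 held in all 16 settings (Ddx10, Gnl3, Noc2l, Noc4l, Nop2, Nop56, Polr1b, Rrp9, Wdr55 and Wdr74), and 9 lost the call in at least 1. Of the 22 genes that did not pass, 6 passed in at least 1 setting, Ncl in 9 of 16. Signs turned for 5 genes, none of them called: Gar1 with median scaling (-0.10), Ebna1bp2 with the mean of all detected probes (0.0096), Rrp1 with median scaling (0.017), and, with an array left out, Npm1 (-0.14 to 0.014), Rrp1 (-0.25 to 0.055) and Utp6 (-0.26 to 0.012). Myc likewise ranged from -0.27 to 0.029. Further assembly and RNA polymerase I genes that fell numbered 16 to 25 with an array left out, and 0 to 1 rose. For RNA polymerase III, 4 to 7 fell with an array left out and 5 with median scaling, and 1 rose with no detection filter, with uncorrected background or with the authors' matrix. Ribosomal protein genes had 2 falls and 1 rise with uncorrected background and likewise with the authors' matrix, 1 fall with median scaling, 2 falls and 3 rises with a trended, robust prior, and 1 rise with the mean of all probes. The cause of these shifts was not tested. No paired analysis was possible because the labels give no replicate numbers. Low signal limits the 11 undetected genes.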
